A study of Mus musculus with 10 samples.

Results

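Transcripts of 10 neutrophil genes were followed across RNA-seq libraries labelled as endothelial cells of the mouse aorta. They were the rows of the deposited count table, 10 of 48526, whose Ensembl identifiers carry the symbols Ngp, Camp, Ltf, Elane and Mpo, here the immature granule set, and Mmp9, Retnlg, Ly6g, Csf3r and Cxcr2, here the mature set. Of the 10 genes, 8 were among the 13334 that had enough reads to be tested, and Elane and Mpo were not. The study's question was what acute mental stress does to endothelial cells of the aorta. There were 5 libraries from mice exposed to stress on 3 consecutive days, for 3 h a day, and 5 from non-stressed mice, with cells sorted by fluorescence from the excised aorta. All 10 libraries carry the strain label ApoE, with no more of the genotype, and no age or sex. Nothing in the labels says whether a library came from 1 animal or a pool, so the tests measure the spread between libraries, which may be partly technical.

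Neutrophils pack their proteins into granules in the order in which the genes are switched on during maturation in bone marrow. Primary granule proteins such as myeloperoxidase and elastase are made first, at the promyelocyte stage, specific granule proteins such as lactoferrin and cathelicidin follow in myelocytes and metamyelocytes, and gelatinase comes late. Mature neutrophils carry the surface receptors that let them leave the marrow and enter tissue, and have largely shut off the early granule genes. In atherosclerosis-prone mice neutrophils are known to adhere to and enter the aortic wall.

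Markers of the labelled cell type were low or at 0. Among 10 endothelial markers, Tek, Emcn and Cldn5 had no read in any library, and Cdh5, the gene of VE-cadherin and named here after its values were seen, had 115 reads in total. The highest of the 10 were Vwf, the gene of von Willebrand factor, which platelets also carry, at 16.0 to 44.8 CPM (counts of the gene per 1000000 counts of the library) and Pecam1 at 12.2 to 46.8 CPM. Lyz2, the lysozyme of monocytes, macrophages and neutrophils, stood at 15692 to 26749 CPM. The libraries held 18020220 to 38237346 counts, so that a gene with 0 reads in a library can be as high as 0.0785 to 0.166 CPM there (3 counts, counting error only). The Y-linked gene Ddx3y had over 100 reads in 6 libraries, non-stressed replicates 2, 3 and 4 and stressed replicates 2, 3 and 4. The X-linked Xist had 0 reads in these 6. In the other 4, Ddx3y had 0 reads and Xist stood at 427 to 660 CPM. The groups are also compared within this split.

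The immature set included 3 genes on 1 stretch of chromosome 9, and these 3 carried most of its reads. In the mm10 build Camp, which encodes the cathelicidin antimicrobial peptide, lies at chr9:109847379-109849617 on the minus strand. Ngp, which encodes neutrophilic granule protein, lies at chr9:110419747-110423012, and Ltf, the gene of lactoferrin, at chr9:111019271-111042767, both on the plus strand. Retnlg, the gene of resistin-like gamma, is at chr16:48872621-48874496, and Cxcr2, the receptor for chemokines that attract neutrophils, at chr1:74153989-74161246. Elane is at chr10:79886247-79888215, Mpo at chr11:87793581-87804413, Mmp9 at chr2:164940780-164955850, Ly6g at chr15:75155240-75159126 and Csf3r at chr4:126024550-126044440, all on the plus strand, as are Retnlg and Cxcr2. The stretches upstream of the starts of Ngp, Ltf, Camp, Retnlg and Cxcr2 are shown so that the 3 neighbouring granule genes can be set beside 2 mature genes with higher levels (sequences from RefSeq, build GRCm38.p6). Each is 5′ to 3′ on the gene's own strand, and capitals mark a match to TTGCNNAA, paired partial sites of the C/EBP factors that drive granule genes, searched on both strands. The stretches cover chr9:110419597-110419746 for Ngp, chr9:111019121-111019270 for Ltf, chr9:109849618-109849706 for Camp, chr16:48872458-48872607 for Retnlg and chr1:74153839-74153988 for Cxcr2.
Ngp: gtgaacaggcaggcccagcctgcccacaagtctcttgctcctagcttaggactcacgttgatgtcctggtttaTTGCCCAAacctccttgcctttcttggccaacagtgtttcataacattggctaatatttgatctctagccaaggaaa
Ltf: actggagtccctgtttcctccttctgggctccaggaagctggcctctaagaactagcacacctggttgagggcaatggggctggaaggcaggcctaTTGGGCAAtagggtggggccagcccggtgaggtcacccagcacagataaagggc
Camp: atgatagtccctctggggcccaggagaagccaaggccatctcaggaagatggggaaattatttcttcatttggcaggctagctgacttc
Retnlg: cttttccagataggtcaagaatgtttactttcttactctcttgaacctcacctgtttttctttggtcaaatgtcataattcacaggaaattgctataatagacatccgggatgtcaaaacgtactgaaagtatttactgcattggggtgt
Cxcr2: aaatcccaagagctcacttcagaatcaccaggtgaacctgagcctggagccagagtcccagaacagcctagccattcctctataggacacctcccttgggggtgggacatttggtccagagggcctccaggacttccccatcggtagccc

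RefSeq promoter windows, from 250 bases before to 50 bases after the start, were matched for 9 of the 10 genes, all but Mmp9. Matches to TTGCNNAA were present in 4 of the 9, against 10.8% of 32851 windows of that length. Counted from the RefSeq start, Ngp had TTGCCCAA at -138 and TTGGGCAA at -11. Ltf had TTGGGCAA at -75, Retnlg TTCTGCAA at -246 and Ly6g TTGAGCAA at -232. The stretches shown above hold at most 150 bases. They end before whichever comes first of the RefSeq start and the gene start in the positions given, not always at the RefSeq start. The Ngp match at -11 and the Retnlg match at -246 lie outside them. The core GAGGAAGT of PU.1, the myeloid factor encoded by Spi1, was in the windows of Elane, Mpo and Ly6g, against 3.20% of all windows. The matches to these letters did not divide the immature from the mature set, and no binding was measured.

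Elane and Mpo, the primary granule members, had few reads. Elane, which encodes neutrophil elastase, had 102 reads in all 10 libraries together, at 0, 0.131, 0.312, 0.629 and 0.139 CPM in non-stressed replicates 1 to 5 and at 0.739, 1.60, 0.444, 0.199 and 0 CPM in stressed replicates 1 to 5. Its 2 highest libraries were both stressed, and the groups overlapped. Mpo, which encodes myeloperoxidase, had 31 reads. In non-stressed replicates 1 to 5 it stood at 0, 0.0785, 0.0851, 0.157 and 0.209 CPM, and it was at 0 in 4 stressed libraries and at 0.572 CPM in stressed replicate 5. The highest Mpo and the highest Elane were therefore in different libraries. Mpo overlaps Gm11505 on the other strand, and the strand setting of the counting is not given in the sources used here.

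Ngp, Camp and Ltf, the specific granule members, were highest in the same 4 libraries and low or at 0 in the other 6. Ngp stood at 2.05, 7.53, 0.539, 0 and 0.939 CPM in non-stressed replicates 1 to 5 and at 13.7, 13.9, 0.333, 11.4 and 0 CPM in stressed replicates 1 to 5. Stressed replicates 1, 2 and 4 were above every non-stressed library, while stressed replicates 3 and 5 were at the low end. For Ltf, an iron-binding granule protein, the values were 0, 7.98, 0, 0 and 0 CPM in non-stressed and 17.0, 16.2, 0, 8.39 and 0.801 CPM in stressed replicates 1 to 5. Camp stood at 0, 1.78, 0, 0.589 and 0 CPM in non-stressed and at 6.74, 1.95, 0, 1.43 and 0 CPM in stressed replicates 1 to 5. Non-stressed replicate 2 and stressed replicates 1, 2 and 4 were the highest 4 libraries for each of the 3 genes. Both groups thus held libraries at the high and at the low end. The 3 genes together had 6 to 810 reads per library, so that no library lacked all of them.

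**Figure D1:**
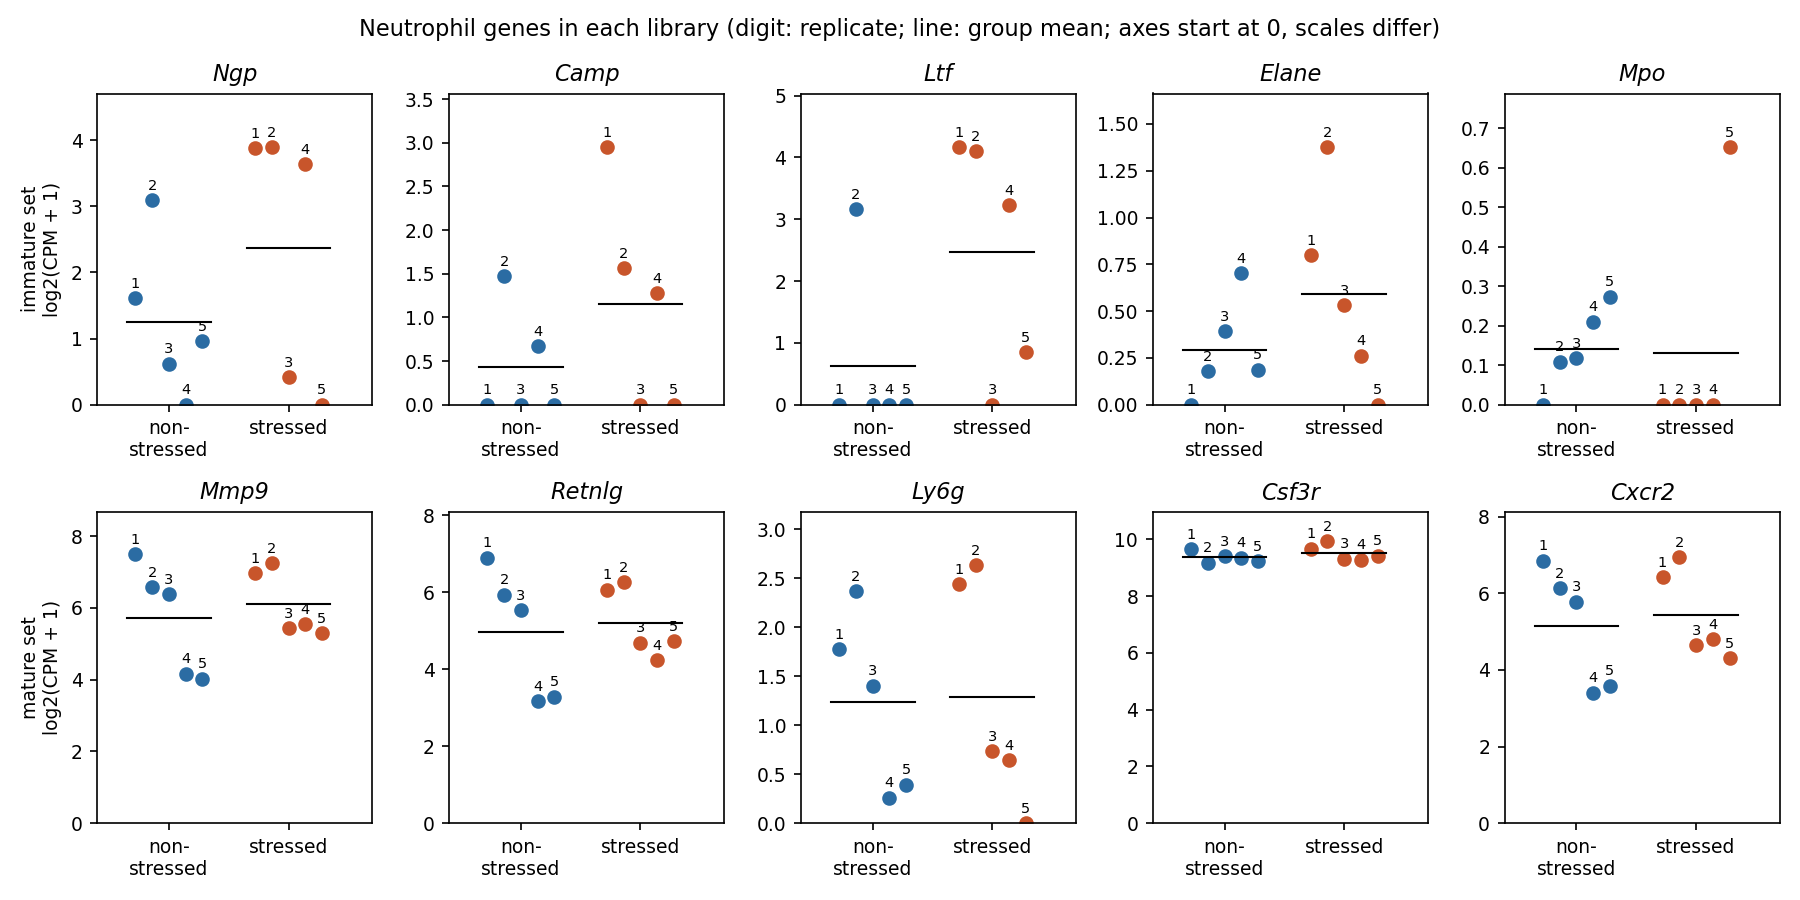
Level of each of the 10 genes in each library, as log2(CPM + 1) on axes that start at 0 and differ between panels. Digits are replicate numbers, blue points non-stressed and orange points stressed libraries, and black lines group means. Ngp, Camp and Ltf are high in non-stressed replicate 2 and in stressed replicates 1, 2 and 4, while Csf3r lies within 578 to 969 CPM in every library.

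The group differences of Ngp, Ltf and Camp did not pass the test. The edgeR quasi-likelihood test (Benjamini-Hochberg adjustment over 13334 genes) gave Ngp a log2 fold change, stressed minus non-stressed, of 1.82 (SE 1.17, 95% interval -0.68 to 4.31, adjusted p = 0.946), with means of 2.21 ± 3.06 (SD, n = 5) and 7.86 ± 7.09 (SD, n = 5) CPM. Ltf stood at 2.38 (SE 1.49, interval -0.81 to 5.56, adjusted p = 0.943) and Camp at 2.07 (SE 1.58, interval -1.32 to 5.45, adjusted p = 0.950). The intervals hold both 0 and differences of over 4 on the log2 scale. In limma-voom with quality weights the estimate of Ngp was lower, at 0.83, and that of Ltf higher, at 4.61, and neither passed the adjusted test. Within the Ddx3y split, differences between group means of log2 CPM were taken, which are not edgeR fold changes. Within the 6 libraries with over 100 Ddx3y reads the difference of Ngp was 2.52 and within the other 4 it was -0.54. For Ltf the 2 values were 2.62 and 5.71 and for Camp 0.43 and 3.26, with 3 against 3 and 2 against 2 libraries and no test. Ltf rested on non-stressed replicate 2 for every non-stressed read: without it the other 4 were at 0. The stressed mean was 78.7 times the level of 3 counts per library in those 4. That value covers counting error only, not the spread between libraries, and depends on leaving out non-stressed replicate 2. Stressed replicates 3 and 5 were themselves at 0 and 0.801 CPM.

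Mature transcripts were found in all or nearly all libraries and ranged widely in both groups. Mmp9 encodes gelatinase B, the matrix protease of gelatinase granules, which macrophages can also make. It stood at 179, 94.6, 82.4, 16.9 and 15.3 CPM in non-stressed replicates 1 to 5 and at 124, 151, 42.3, 45.7 and 38.2 CPM in stressed replicates 1 to 5. Retnlg was counted at 118, 60.3, 45.2, 8.02 and 8.73 CPM in non-stressed and at 66.2, 75.7, 24.9, 17.8 and 25.4 CPM in stressed replicates 1 to 5. The highest and the lowest library of both genes were non-stressed, so that every stressed library lay inside the non-stressed range. Over the 10 libraries the highest level was 11.7 times the lowest for Mmp9 and 14.8 times for Retnlg.

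The 2 other neutrophil surface genes kept nearly the same order. Cxcr2 stood at 115, 69.2, 54.0, 9.63 and 11.0 CPM in non-stressed and at 84.7, 122, 24.0, 27.0 and 18.9 CPM in stressed replicates 1 to 5, a span of 12.7 times. Ly6g, the antigen by which mouse neutrophils are sorted, stood at 2.42, 4.16, 1.64, 0.196 and 0.313 CPM in non-stressed and at 4.43, 5.19, 0.666, 0.563 and 0 CPM in stressed replicates 1 to 5. Stressed replicates 1 and 2 were its 2 highest libraries and stressed replicate 5 its lowest. Fewer neutrophils in a sample and less RNA per neutrophil cannot be told apart in bulk libraries.

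Csf3r, the receptor of granulocyte colony-stimulating factor, which monocytes carry as well, did not share this range. Its levels were 804, 578, 677, 651 and 597 CPM in non-stressed and 808, 969, 635, 620 and 686 CPM in stressed replicates 1 to 5. The highest was 1.68 times the lowest. Its within-group SD was 0.23 on the log2 CPM scale, against 1.30 for Mmp9, 1.39 for Retnlg and 1.42 for Cxcr2. Among tested genes within 1 log2 CPM of their own average, these SDs fell at the 89.2, 99.8, 99.7 and 99.8 percentiles in that order.

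None of the 5 mature genes differed between the groups by the test. The edgeR log2 fold changes were 0.05 for Mmp9 (SE 0.57, interval -1.18 to 1.28, adjusted p = 0.998) and -0.19 for Retnlg (SE 0.61, interval -1.49 to 1.11, adjusted p = 0.993). Cxcr2 stood at 0.10 (SE 0.63, interval -1.24 to 1.44, adjusted p = 0.998) and Ly6g at 0.31 (SE 1.04, interval -1.92 to 2.54, adjusted p = 0.993). Csf3r had the narrowest interval, at 0.17 (SE 0.12, interval -0.08 to 0.43, adjusted p = 0.950). Of the 8 tested members 0 passed an adjusted p of 0.05 in edgeR, against 0.0075% of all genes tested, and 0 had an unadjusted p under 0.05, against 5.53%. The 5 mature genes had means within the spread of either group, for example 77.5 ± 67.1 (SD, n = 5) and 80.3 ± 52.9 (SD, n = 5) CPM for Mmp9. The direction of Mmp9, Retnlg, Ly6g and Cxcr2 turned when single libraries were left out. Mmp9 and Cxcr2 turned without non-stressed replicate 4 or 5 or stressed replicate 1 or 2, Ly6g without stressed replicate 1 or 2, and Retnlg without non-stressed replicate 1 or stressed replicate 4. Differences of mean log2 CPM were also taken within the libraries with over 100 Ddx3y reads and within the others, with no test. In that order, Mmp9 had 0.38 and 0.40 and Retnlg, negative in edgeR, 0.20 and 0.36. Cxcr2 had 0.38 and 0.18, Ly6g 0.11 and -0.76, and Csf3r 0.19 and 0.12.

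**Figure D2:**
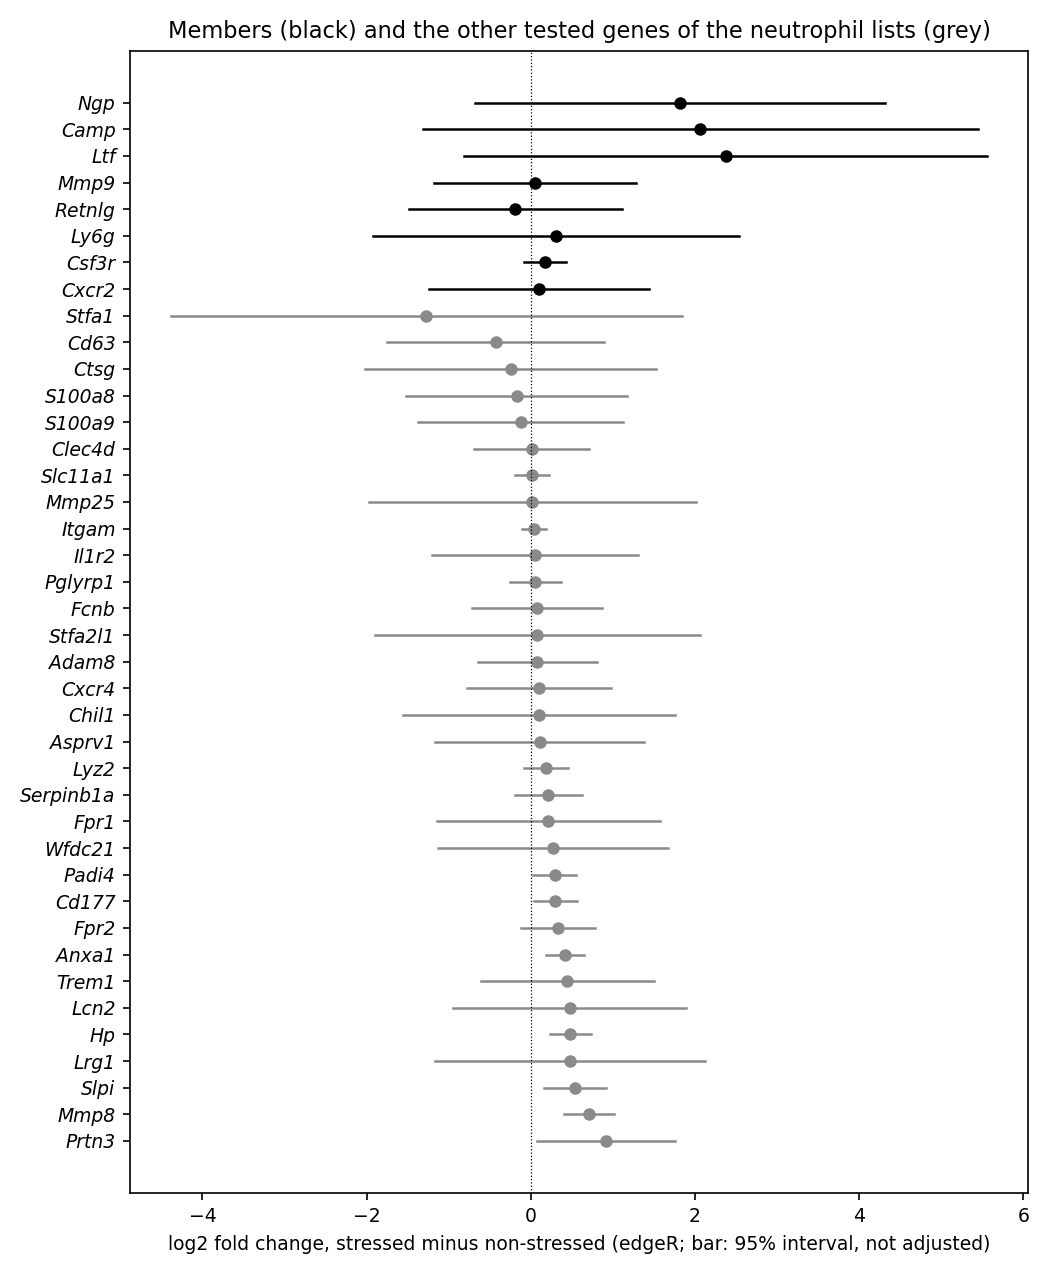
Log2 fold change of each tested gene, stressed minus non-stressed, with its 95% interval from edgeR, not adjusted for the number of genes; the 8 tested members are black and the other tested genes of 5 neutrophil lists are grey. The 3 specific granule members have estimates of 1.82 to 2.38 and the widest intervals among the members, while Mmp8 and Hp are near 0.71 and 0.48 with narrow ones.

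Per kilobase of exon, which allows levels to be set beside each other, the genes spanned a wide range. Csf3r had a mean of 195 CPM per kilobase, Retnlg 76.0, Mmp9 22.3 and Cxcr2 17.6. Next came Ngp at 4.12, Ly6g at 2.08, Camp at 1.65 and Ltf at 1.46, and the lowest were Elane at 0.426 and Mpo at 0.0322. Neighbours within the middle group overlapped over the libraries, since Ngp ran from 0 to 11.4 and Camp from 0 to 8.89 CPM per kilobase. Mature genes other than Ly6g were thus above the immature granule genes on average, and Elane and Mpo came last.

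The summed levels of the 2 sets shared part of their order over the libraries. Mmp9, Retnlg, Ly6g and Cxcr2 together gave 415, 228, 183, 34.8 and 35.4 CPM in non-stressed replicates 1 to 5 and 279, 354, 91.9, 91.1 and 82.6 CPM in stressed replicates 1 to 5. Ngp, Camp and Ltf together gave 2.05, 17.3, 0.539, 0.589 and 0.939 CPM in non-stressed and 37.4, 32.0, 0.333, 21.2 and 0.801 CPM in stressed replicates 1 to 5. Stressed replicates 1 and 2 and non-stressed replicate 2 were among the 4 highest libraries for both sums. Non-stressed replicate 1 was the highest for the mature sum, with 2.05 CPM of Ngp and no read of Camp or Ltf. Stressed replicate 4 was among the lower libraries for the mature sum, yet its granule sum was above that of non-stressed replicate 2 and only stressed replicates 1 and 2 were higher. The 3 stressed libraries with mature sums of 82.6 to 91.9 CPM thus differed from 0.333 to 21.2 CPM in the granule sum.

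The share of Ngp, Camp and Ltf in their reads together with those of Mmp9, Retnlg, Ly6g and Cxcr2 varied between libraries. Ngp, Camp and Ltf made up 18.9% of the reads of these 7 genes in stressed replicate 4 (Wilson 95% interval 17.6% to 20.3%) and 0.492% in non-stressed replicate 1 (0.374% to 0.648%). The share was 11.8% in stressed replicate 1, 8.29% in stressed replicate 2 and 7.04% in non-stressed replicate 2. In the other 5 libraries it was 0.293% to 2.59%. Reads without molecular identifiers are not independent molecules, and the intervals cover counting error only. The difference between the shares of stressed replicate 4 and non-stressed replicate 1 was far larger than these intervals, but each is 1 library. These shares do not stand for all specific granule transcripts. A list of 11 such genes, Ngp, Camp and Ltf included, summed to 1082 to 1549 CPM in non-stressed and 1650 to 2117 CPM in stressed libraries. In non-stressed replicate 1 that sum was 1478 CPM. The 2 ranges did not overlap, which held for 1.11% of all tested genes taken singly, and the sum was not tested. Most of it came from Hp and Cd177, with mean CPM of 902 and 358. Their Spearman rho with the mean log2(CPM + 1) of the mature set was 0.08 and -0.08.

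**Figure D3:**
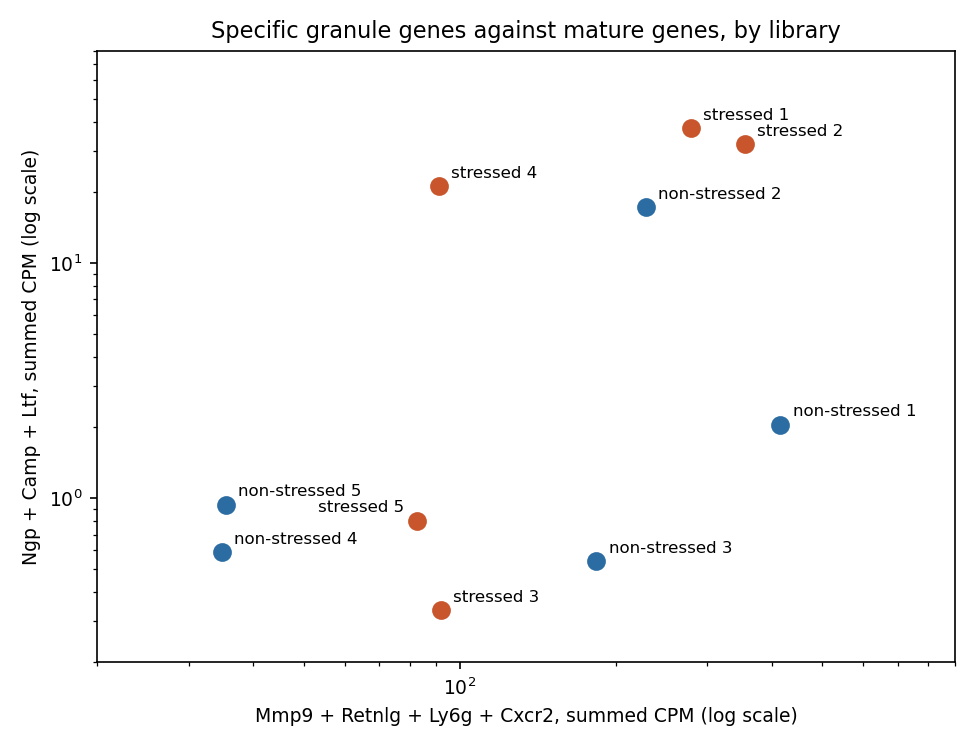
Summed CPM of Ngp, Camp and Ltf against summed CPM of Mmp9, Retnlg, Ly6g and Cxcr2, each point 1 library, both axes on log scales; blue is non-stressed and orange stressed. The 4 libraries with 17.3 to 37.4 CPM of Ngp, Camp and Ltf lie above the other 6, which stay at or under 2.05 CPM across the whole range of the mature sum.

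Averaged over all 5 genes of each set, the mean log2(CPM + 1) of the immature set was 0.55 ± 0.59 in the non-stressed group and 1.34 ± 1.03 in the stressed group (SD, n = 5 each). The mature set gave 5.29 ± 1.14 and 5.51 ± 0.88. The immature mean minus the mature mean was -4.74 ± 1.07 in non-stressed and -4.16 ± 0.60 in stressed libraries, a difference of 0.58 that is smaller than the non-stressed SD. It is given with no test. In the libraries low in Ngp, Camp and Ltf the immature mean was 0.19 to 0.32, so the difference of sets there mostly follows the mature mean. With 0.1 CPM added in place of 1 CPM, the difference between the groups was 1.16.

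Among the mature genes, the order of the libraries was close to shared. Of 28 pairs formed by the 8 tested genes, the 6 pairs among Mmp9, Retnlg, Ly6g and Cxcr2 had Pearson r of 0.83 to 0.99 and Spearman rho of 0.81 to 0.98 over 10 libraries. Mmp9 and Cxcr2 had r of 0.99 (permutation p = 2.0e-05, adjusted p = 0.00028 over 28 pairs) and rho of 0.98 (permutation p = 5.0e-05, adjusted p = 0.0014). Without the 2 libraries farthest from the median of Mmp9, non-stressed replicates 4 and 5, r was 0.99, and within the 6 libraries with over 100 Ddx3y reads it was 0.997. Retnlg and Ly6g, the pair with the lowest r of the 6, had r of 0.83 (permutation p = 0.0048, adjusted p = 0.0149) and rho of 0.81 (permutation p = 0.0072, adjusted p = 0.0252). Its r was 0.81 without non-stressed replicates 4 and 5 and 0.94 within those 6 libraries. The other 4 libraries are too few for such a value. All 6 pairs had adjusted permutation p under 0.05 for both measures. The libraries share their totals and any change in the mix of cells between these genes.

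Pairs across the sets were positive as well over all 10 libraries. The 15 pairs of Ngp, Camp or Ltf with a mature gene had r of 0.32 to 0.75 and rho of 0.23 to 0.81, of which 0 passed the adjusted permutation test for r and 2 for rho. Ngp and Ly6g had rho of 0.81 (permutation p = 0.0059, adjusted p = 0.0252) and r of 0.75 (permutation p = 0.0210, adjusted p = 0.0587). Ngp and Cxcr2 had rho of 0.78 (permutation p = 0.0097, adjusted p = 0.0303) and r of 0.65 (permutation p = 0.0455, adjusted p = 0.0849). Without stressed replicates 1 and 2, the libraries farthest from the median of Ngp, r was 0.54 for the first and 0.45 for the second pair. Within the 6 libraries with over 100 Ddx3y reads it was 0.63 and 0.66. Without stressed replicates 1 and 2, some of the 15 pairs turned negative. Csf3r had r of -0.30 with Ngp, -0.54 with Camp and -0.49 with Ltf, and Camp and Retnlg had -0.03. The remaining pairs stayed positive, at 0.07 to 0.54. Since Ngp, Camp and Ltf are high in 4 libraries and low in 6, these values partly restate that division, and whether the 2 sets differ in order was not tested.

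Csf3r had lower correlations with the other mature genes. With the other 4, its r was 0.58 to 0.67 and its rho 0.41 to 0.62, and 0 of these 4 pairs passed the adjusted permutation test. Its 2 highest libraries, stressed replicates 2 and 1, follow non-stressed replicate 1 in the mature sum, but its lowest, non-stressed replicate 2, comes next. Whether its correlations differ from those of the other pairs was not tested.

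Genes outside the 10 with the most similar order over the libraries were found among all tested genes, as a description. For the mature mean these were Zdhhc6 (rho 0.99), a palmitoyltransferase, and Itgax, the integrin chain CD11c of dendritic cells and other myeloid cells, Slc40a1, the iron exporter ferroportin, Cd300ld and Lfng, each with rho 0.98. Itgax ran from 31.8 to 149 CPM and Slc40a1 from 3.10 to 58.7 CPM. Members included, 418 genes (3.13% of those tested) had a rho of 0.8 or more with the mature mean. For the immature mean the closest were Msrb2 (rho 0.89), Htt and Efcab14 (both 0.88), and 1700055D18Rik and Dnah8 (both 0.87), and 35 genes (0.262%) reached 0.8. The immature mean is at least 1.60 in the 4 libraries where Ngp, Camp and Ltf were highest and at most 0.32 in the other 6, so its rho mostly orders levels close to 0.

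The specific granule genes' neighbours on chromosome 9 had mixed orders over the libraries. The interval from Camp to Ltf spans chr9:109847379-111042767 and holds 54 genes of the table, 18 of them tested. The 15 tested neighbours other than the 3 members had rho of -0.62 to 0.64 with the immature mean, with a median of 0.08. Map4, a microtubule-associated protein gene named here after its values were seen, was the highest. Their log2 fold changes ran from -0.44 to 0.13.

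Other neutrophil genes came from 5 lists of granule, receptor, cytosolic and secreted genes, which hold 40 genes besides the members. Of these, 32 were tested, 27 with a positive and 5 with a negative log2 fold change (median 0.11, against 0.0045 and 50.9% positive among all tested genes), and 0 passed the adjusted edgeR test. An unadjusted edgeR p under 0.05 was found for 7 of the 32, against 5.53% of all tested genes: Mmp8, Hp, Cd177, Prtn3, Slpi, Anxa1 and Padi4, all higher in stressed libraries. With the members left out, the specific granule list had 7 tested genes, all 7 with positive estimates (median 0.30), and the other tested receptor and surface genes were positive in 6 of 6 (median 0.16). The primary granule list had 3 positive and 2 negative estimates among its 5 tested genes.

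The 7 genes with an unadjusted p under 0.05 were found in every library. Mmp8, the neutrophil collagenase, stood at 63.8 to 178 CPM, with means of 86.2 ± 15.5 without and 141 ± 28.0 with stress (SD, n = 5 each; log2 fold change 0.71, SE 0.14, edgeR adjusted p = 0.349). Hp, the gene of haptoglobin, which specific granules store, stood at 572 to 1187 CPM, with a log2 fold change of 0.48 (SE 0.12, edgeR adjusted p = 0.641). Cd177, a neutrophil surface glycoprotein, had 249 to 432 CPM and 0.30 (SE 0.12, edgeR adjusted p = 0.874). Anxa1, the annexin that limits neutrophil recruitment and that many myeloid cells make, had 322 to 619 CPM and 0.42 (SE 0.11, edgeR adjusted p = 0.684). Prtn3, the gene of proteinase 3 in primary granules, reached 3.28 to 19.7 CPM, with a log2 fold change of 0.92 (SE 0.39, edgeR adjusted p = 0.874). Slpi had 45.5 to 107 CPM and 0.54 (SE 0.18, edgeR adjusted p = 0.829), and Padi4 71.6 to 136 CPM and 0.29 (SE 0.12, edgeR adjusted p = 0.874). The rho of the 7 genes with the mature mean ran from -0.08 for Cd177 to 0.60 for Slpi, with Mmp8 at 0.43.

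Erythroid markers had positive estimates as well. This held for 7 of 7 (median 0.72), 0 of them past the adjusted edgeR test and 5 with unadjusted edgeR p under 0.05, and their sum ran from 1333 to 2781 CPM in non-stressed and from 1172 to 5528 CPM in stressed libraries. That sum was highest in stressed replicate 3 and lowest in stressed replicate 4. Platelet markers had positive estimates for 6 of 6 genes, none with unadjusted p under 0.05, and sums of 61.8 to 225 CPM in non-stressed and 105 to 240 CPM in stressed libraries. Their part in the estimates of the granule genes was not tested.

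Some of the other neutrophil genes shared the order of the mature members. Of the 32 tested genes of the 5 lists, 13 had a rho of 0.8 or more with the mature mean, against 3.13% of all tested genes. They included S100a8 and S100a9, the subunits of calprotectin in neutrophil cytosol, at 35.7 to 567 and 53.4 to 698 CPM (rho 0.96 and 0.95). Adam8, a surface protease stored in granules, ran from 22.7 to 88.0 CPM (rho 0.93). Lcn2 and Chil1, specific granule genes chosen here after their values were seen, ran from 1.93 to 50.6 and from 0.904 to 28.5 CPM (rho 0.96 for both). The log2 fold changes of S100a8 and S100a9 were -0.17 (SE 0.63) and -0.12 (SE 0.58). Of the gelatinase granule list, Itgam, the integrin chain CD11b, stood at 264 to 322 CPM and Slc11a1, a phagosomal metal transporter, at 276 to 399 CPM.

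Ligands and regulators of neutrophils were measured in the same libraries. Among 7 ligands, Cxcl3 and Csf2 had no read, Cxcl1, named here after its values were seen, had 4 reads and Csf3, the ligand of the Csf3r product, 13 reads over all libraries. Ppbp, a platelet chemokine that acts on CXCR2, stood at 17.8 to 76.4 CPM (log2 fold change 0.31, SE 0.32), and Cxcl2 at 0.34 to 11.1 CPM (1.27, SE 0.73, edgeR adjusted p = 0.940). Of 8 granulocyte transcription factors 6 had positive and 2 negative estimates, and 0 passed the adjusted edgeR test. An unadjusted edgeR p under 0.05 was found for 1 of the 8, Cebpd (log2 fold change 0.28, SE 0.10, edgeR adjusted p = 0.874), against 5.53% of all tested genes. Spi1 and Cebpa, the genes of PU.1 and C/EBP alpha, stood at 620 to 744 and at 237 to 537 CPM. Cebpe, the factor of the specific granule stage, named here after its values were seen, had 1.45 to 6.22 CPM and a log2 fold change of 0.82 (SE 0.44, edgeR adjusted p = 0.912). Of 11 progenitor genes, which include Elane, Mpo and Prtn3, Ms4a3 had no read in any library. Among the 7 tested, 3 had positive and 4 negative estimates (median -0.24), and 0 passed the adjusted edgeR test. Flt3 and Prtn3 had unadjusted edgeR p under 0.05, both higher in stressed libraries. Flt3, the highest of the list, stood at 26.6 to 62.3 CPM, with a log2 fold change of 0.45 (SE 0.17, edgeR adjusted p = 0.874). Mki67 came next, with a mean of 24.3 CPM.

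Marker genes of several other blood cells shared part of the order of the mature genes. The 8 T and NK cell markers, all tested, had positive rho with the mature mean (median 0.78), and their sum stood at 59.6, 89.4, 39.3, 19.1 and 16.1 CPM in non-stressed and 61.7, 55.8, 17.6, 10.5 and 9.31 CPM in stressed replicates 1 to 5. The 6 B cell markers were positive in 6 of 6 (median 0.79), with sums of 463 to 861 CPM in non-stressed and 324 to 598 CPM in stressed libraries. Platelet markers were positive in 6 of 6 (median 0.67) and erythroid markers in 7 of 7 (median 0.39). The 4 tested eosinophil and basophil markers were positive too, with sums of 0 to 8.45 CPM and 1.45 to 12.6 CPM, and Epx and Prg2, which define eosinophils, at 0 in every library. The 10 monocyte and macrophage markers were positive in 3 of 10 (median -0.27), at sums of 21880 to 33911 CPM and 26553 to 33890 CPM. Of the 4 with the highest mean CPM, Lyz2, Ccr2 and Ly6c2, a surface antigen of inflammatory monocytes, had rho of -0.78, -0.59 and -0.83. Csf1r, the other of these 4, had a rho of 0.62. Lyz2, with a mean of 21895 CPM, gave most of the sums. Of the endothelial markers 4 were tested and 3 were positive, with sums of 38.8 to 91.0 CPM and 33.8 to 84.6 CPM. The part of these cell types in the levels of the mature genes was not tested.

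**Figure D4:**
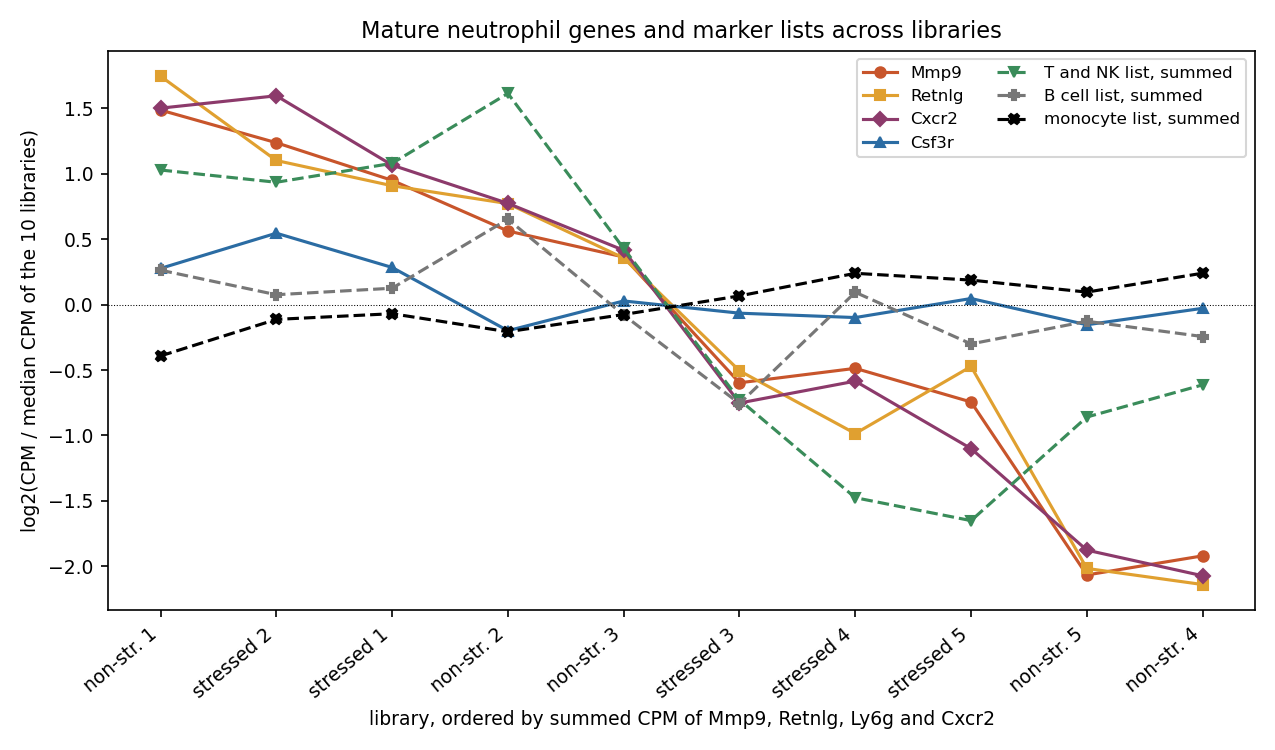
Level of 4 mature genes and of the summed T and NK, B cell and monocyte marker lists in each library, as log2 of the CPM over the median of the 10 libraries, with libraries ordered from the highest to the lowest sum of Mmp9, Retnlg, Ly6g and Cxcr2. Mmp9, Retnlg and Cxcr2 fall from left to right as the T and NK list tends to, while Csf3r and the monocyte list stay near their medians.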

How the data were processed

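RNA was sequenced from 5 stressed and 5 non-stressed samples of sorted aortic cells. Per the labels, PicoPure RNA and TruSeq Stranded libraries were used. Per the submitters' processing notes, Trimmomatic, STAR, featureCounts and the mm10 build were used; the sources used here give no version, annotation release or strand option. The deposited values are raw counts of reads, with no normalization, for 48526 Ensembl identifiers. GENCODE M21 gave symbols and positions for 48058. The other 468 held 0.0508% to 0.0636% of a library's counts and were kept.

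The members and lists were chosen with earlier results of these data known. Besides all members, up to 4 genes of each list with the highest mean CPM, markers at 0 and the 5 genes closest in order to each set are named. Exceptions are said to be so, and Mmp8, Hp, Cd177, Prtn3, Slpi, Anxa1, Padi4 and Cebpd are named for their unadjusted p. CPM per library uses the total count, and CPM beside a fold change the TMM-scaled total. The test was edgeR 4.0.16 under R 4.3.3 on the counts (filterByExpr, TMM, quasi-likelihood F test, intercept and group, Benjamini-Hochberg at 0.05, checked on simulated counts); SE is the log2 fold change over the square root of F. Correlations used log2(CPM + 1) and 100000 permutations (scipy 1.17.1, two-sided). Chi-square over degrees of freedom was 22.3 to 69.8 between libraries of a group, so none was a duplicate of another in its group. Libraries of different groups were not compared in this way. Alternatives were RLE and no scaling, 2 other low-count filters, DESeq2 1.42.0, limma-voom (limma 3.58.1), robust dispersion, the replicate block, a Ddx3y covariate and leaving out each library. For the difference of sets they were another pseudocount, TMM scaling, the median and, chosen after seeing the data, the mature set without Csf3r.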

Additional observations from a re-analysis of the deposited data

Results flagged for a closer look

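In 4 of 20 groups of 5 libraries, each 1 gene in 1 condition, the highest library lay far from the rest, by the ratio of its gap to the nearest library over the range of the group (above 0.71). The cut-off is set to pick out about 1 in 20 groups of normally distributed values, which CPM values near 0 are not. A group with reads in only 1 library has a ratio of 1.0 whatever its level, so no rate by chance is given here. For Ngp, non-stressed replicate 2 stood at 7.53 CPM against 2.05 CPM in the next library (ratio 0.728). For Camp, stressed replicate 1 stood at 6.74 CPM against 1.95 CPM (ratio 0.710). For Ltf, non-stressed replicate 2 stood at 7.98 CPM and the other 4 non-stressed libraries at 0 (ratio 1.0). For Mpo, stressed replicate 5 stood at 0.572 CPM and the other 4 stressed libraries at 0 (ratio 1.0).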

How the results depend on the processing

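The count of genes passing the adjusted test, 1 in the main edgeR test, was 10 with no low-count filter, 19 in DESeq2, 2 in limma-voom and 4 with the replicate block, and 1 to 2 with a library left out (2 without non-stressed replicate 5). In none of these was a tested member among the genes passing; the lowest adjusted p was 0.294, for Ltf with the replicate block. Ltf stood at 5.42 and Ngp at 1.27 with the replicate block and at 4.61 and 0.83 in limma-voom, against 2.38 and 1.82. Retnlg turned positive in limma-voom (0.026) and with the replicate block (0.24), and Ly6g turned negative in both (-1.05 and -0.20); the cause was not tested. With 1 library left out, log2 fold changes ran from 1.50 to 3.16 for Ngp, 0.81 to 3.74 for Camp, -0.32 to 0.61 for Mmp9, -0.52 to 0.45 for Retnlg, -0.32 to 0.92 for Ly6g, 0.05 to 0.24 for Csf3r and -0.42 to 0.61 for Cxcr2. For Ltf they ran from 1.96 to 10.77, where the upper value, without non-stressed replicate 2, is no bound because all remaining non-stressed libraries are at 0. With no filter, Ngp and Ltf had unadjusted edgeR p of 0.0466 and 0.0385 (adjusted p = 0.440 for both), Elane a log2 fold change of 1.27 (SE 1.47) and Mpo 0.13 (SE 2.03). Camp and Ltf could not be tested with at least 1 CPM in 5 libraries. The immature minus mature difference was 0.40 to 1.16 under 4 other settings and 0.21 to 0.82 with a library left out. Deviations of same-numbered libraries correlated at 0.128, 0.156, -0.027, 0.118 and 0.124, so 4 of 5 exceeded 0.1. As the labels name no shared animal or day, the numbers were not taken as pairs. Of the 5 non-stressed libraries, 3 correlated best with their own number. Same-numbered libraries also fell on the same side of the Ddx3y split, whose part in these correlations was not tested. Elane, Mpo and Camp rest on 102, 31 and 316 reads, and differences near 3 counts per library are not detectable at this depth.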
